A study of Drosophila melanogaster with 3 samples.

Results

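The interval from CG13334 to CG42807 on chromosome arm 2R (dm6) held the 2 strongest Prospero peaks of every deposited list. It runs from 13557545 to 13573759, which is from 1 kb outside CG13334 to 1 kb outside CG42807, and covers 16215 bp. All summits inside these borders were taken, where a summit is the position that the authors' peak caller marked in a peak. There were 14 of 6215 summits in the optimal set, 19 of 30000 in the pooled list, and 22, 17 and 20 of 30000 in the lists of replicates 1, 2 and 3. The interval was selected because of these peaks, so their strength and number are a description and were not tested.

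Prospero is a homeodomain transcription factor of the fly nervous system. Dividing neuroblasts, the neural stem cells, make it and pass it to the daughter cell that leaves the stem cell state, where it enters the nucleus, turns off genes of stem cell renewal and turns on genes of differentiation. It is also found in some glia, in sensory organs and in cells outside the nervous system. ChIP-seq recovers the DNA that is crosslinked to such a factor, and a peak marks DNA recovered more often than in a control.

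The embryos were Drosophila melanogaster of 2 to 18 h, males and females together, from a transgenic line that carries Prospero fused to GFP at its C terminus. The age was taken from the source names, because a separate age label gives a number of hours too large for any embryo. All 3 biological replicates belong to this single group, and the labels do not say how the embryos were collected. The chromatin came from whole animals, so a summit does not tell which cells held the protein. Per the sample descriptions an antibody to GFP was used, while the antibody label names pros. The control library and other GFP lines were not used here, so signal of the interval in their precipitates was not tested.

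Each replicate list and the pooled list had been deposited with 30000 peaks, and the optimal set of 6215 peaks, chosen by the authors through the recurrence of ranks between replicates, consisted of the strongest peaks of the pooled list. No list gives read numbers, and the sequencing depth behind each value is therefore not known. The signal of a peak is the authors' value, its scale is not stated, and values were compared only within a list. Rank 1 is the strongest peak of a list.

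The strongest peak of all 3 replicates lay between the genes, at 13566912 in the optimal set. Its signal was 7246 in replicate 1, 8424 in replicate 2 and 9070 in replicate 3. The 3 replicate summits were placed within 26 bp of each other, and all were ranked 1. The signal was 188 ± 12.1 times the median of its list (SD, n = 3). The strongest peak outside the interval was the same in all lists, an intronic summit of pros, the gene of Prospero itself, at 11378865 on 3R. It was ranked 3 in each replicate, with a signal of 5104, 5593 and 5833 in replicates 1, 2 and 3. The top summit of the interval thus exceeded it 1.5 ± 0.0709 times (SD, n = 3), and by at least 1.42 times in each replicate.

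**Figure D1:**
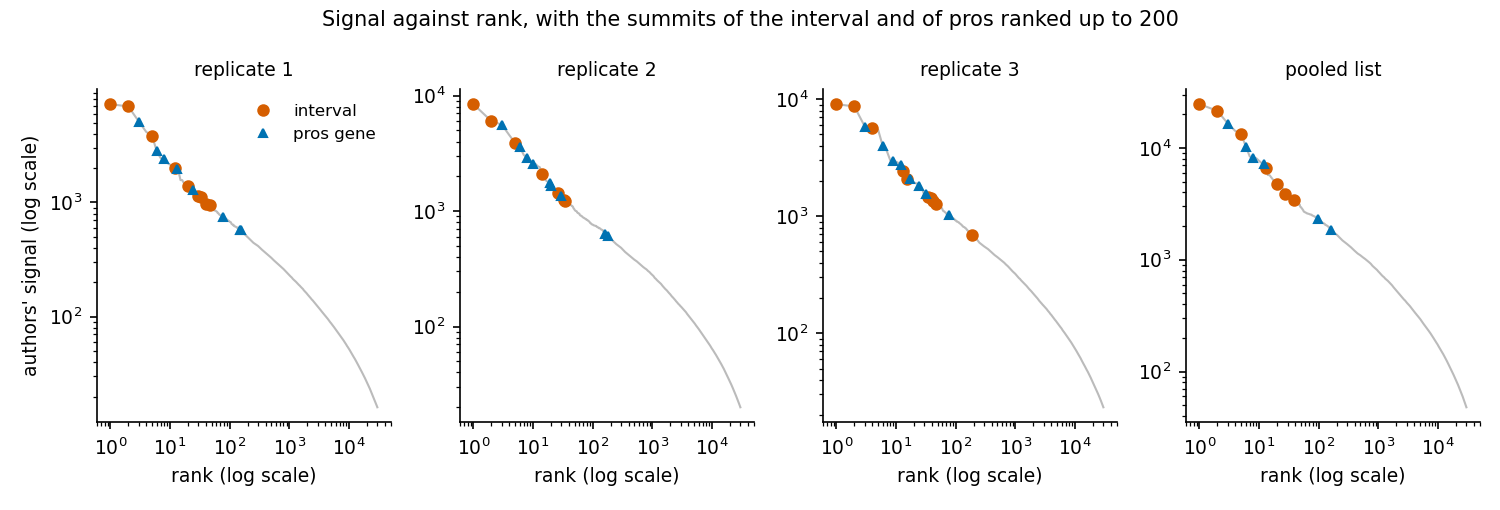
Signal of each peak (log scale, authors' unit) against its rank in the list (log scale) for replicates 1, 2 and 3 and the pooled list, with the grey line for all peaks. Orange circles are the summits of the interval and blue triangles those of pros that were ranked up to 200; the interval holds ranks 1 and 2 in every panel and pros holds rank 3.

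The summits of the interval took up 1.45%, 1.15% and 1.37% of the summed signal of the lists of replicates 1, 2 and 3, while they made up 0.0733%, 0.0567% and 0.0667% of the peaks. Among the 100 strongest peaks of a list there were 9, 7 and 9 from the interval in these replicates, and among the 10 strongest there were 3 in each. The rest of the interval reached far down the lists, since only 11, 9 and 13 of its summits were among the 1000 strongest.

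Most of these summits belonged to 1 continuous stretch. In each list the summits of this stretch had been deposited with the same peak start and end. It was thus 1 peak of the authors' caller with several summits, and joining overlapping peaks did not change its borders. When overlapping peaks were joined, the region that crosses the interval was 11726, 11852 and 11822 bp wide in replicates 1, 2 and 3, and held 19, 15 and 16 summits. It was the widest region of each list. The next widest measured 4581, 5901 and 5085 bp, so the region was 2.3 ± 0.276 times as wide as the next (SD, n = 3), and the median region was 476, 550 and 470 bp wide. In the optimal set it ran from 13559393 to 13571506 and held 13 summits. No other joined region of the optimal set had more than 7.

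**Figure D2:**
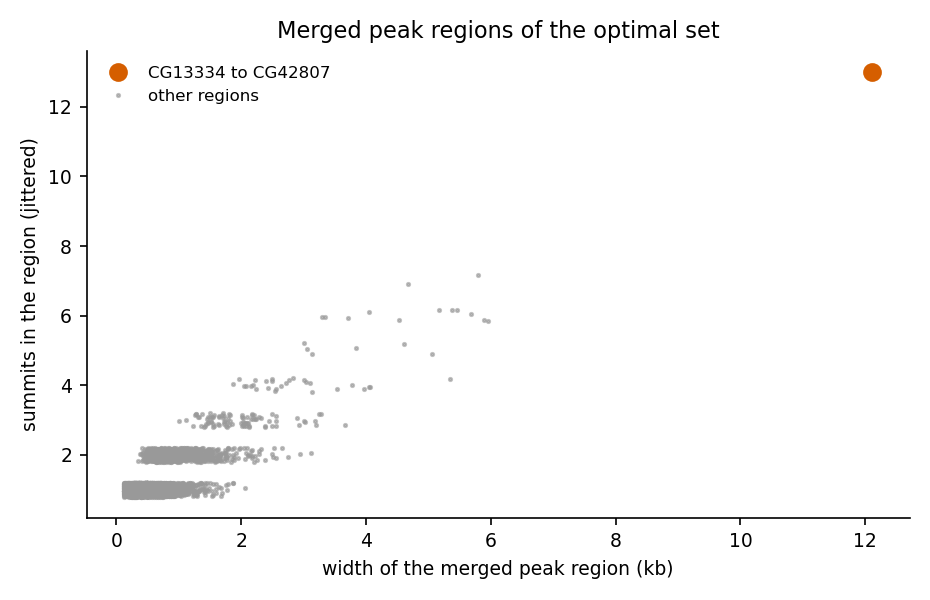
Number of summits in each joined peak region of the optimal set (jittered by up to 0.2 for the other regions) against its width in kb. The region from CG13334 to CG42807 (orange) has 13 summits in 12114 bp; the others (grey) have at most 7 summits and are at most 5949 bp wide.

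CG13334 (FBgn0033856, 13558545 to 13560768, plus strand) and CG42807 (FBgn0261989, 13570595 to 13572759, minus strand) point at each other, so the stretch of 9826 bp between them lies past the 3′ ends of both. RefSeq annotates the product of each as an uncharacterized protein. Of the 14 summits of the optimal set, 11 lay in this stretch and 2 in the 3′ UTRs. Intergenic summits were thus 78.6% of the interval, against 19.9% of the whole optimal set, but the borders of the interval enclose a long intergenic stretch and in part fix this share. No summit of the optimal set was in an intron or a coding sequence of either gene.

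The translation of CG13334, of 361 amino acids, aligned to Ldh with 41.0% identity over 310 residues. Ldh encodes lactate dehydrogenase, which interconverts pyruvate and lactate. The other similar protein among the 13945 compared was Mdh2, a malate dehydrogenase, with 26.2% identity over 324 residues. The translation of CG42807, of 278 amino acids, had no similar protein among them. Counted over the gene and 1 kb before it, Ldh had 1 summit of the optimal set and Mdh2 had 0.

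The start sites of both genes carried little signal. Within 500 bp of the CG13334 start site, the strongest summit was ranked 23020, 21188 and 20729 in replicates 1, 2 and 3, and the pooled list and the optimal set had none. Just beyond this limit, at -0.523 kb, lay the summit at 13558022, ranked 4394 in the optimal set with 1.31% of the top signal. The CG42807 start sites, at 13572544 and 13572759, had a strongest summit within 500 bp ranked 14189 in replicate 1, 16594 in replicate 3 and 18940 in the pooled list, while replicate 2 and the optimal set had none. The strong summits were at the far ends of the genes and between them in all 3 replicates.

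**Figure D3:**
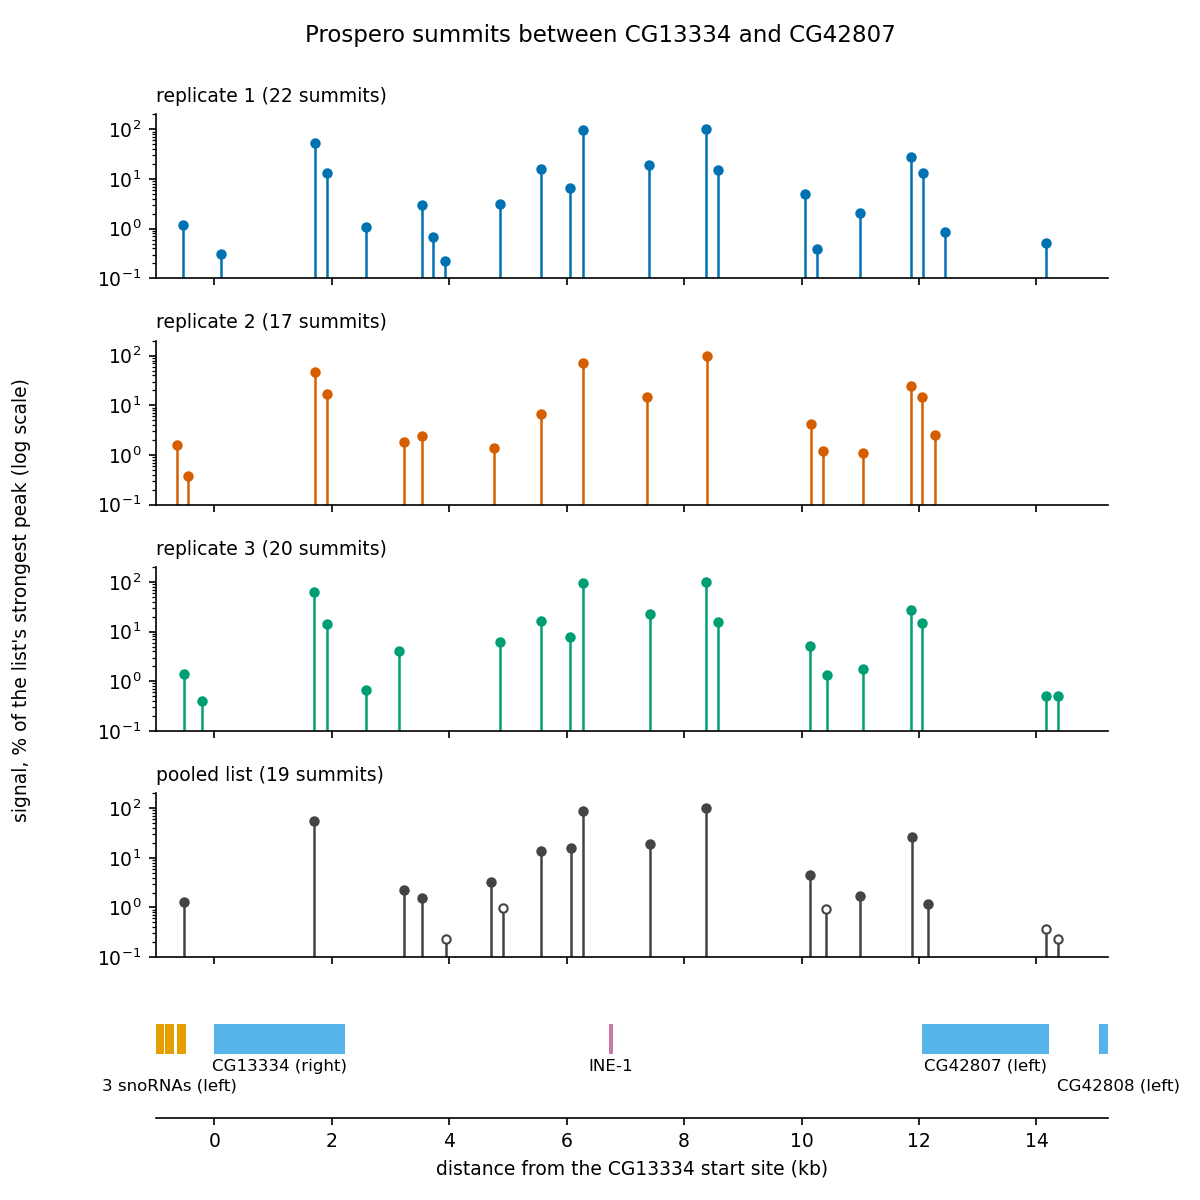
Summits of the interval in replicates 1, 2 and 3 and in the pooled list, with the signal as a percentage of the strongest peak of the list (log scale) against the distance from the CG13334 start site in kb. Filled circles are summits of the list, open circles are summits of the pooled list that are not in the optimal set, and the bars at the bottom are genes with the direction of transcription in brackets; the tallest summits lie between 1.7 and 11.9 kb in each panel.

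The second strongest summit lay at 13564828, 6.28 kb downstream of the CG13334 start site. It was ranked 2 in all 3 replicates, with a signal of 6918 in replicate 1, 6013 in replicate 2 and 8673 in replicate 3. As a share of the top summit this was 95.5%, 71.4% and 95.6%, so replicates 1 and 3 gave nearly equal summits and replicate 2 did not. The 3 positions spanned 11 bp. An INE-1 transposable element of 69 bp, annotated at 13565260 to 13565328, began 432 bp to its right.

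In the 3′ UTR of CG13334, a summit at 13560249 was ranked 5, 5 and 4 in replicates 1, 2 and 3. Its signal was 3837, 3892 and 5729.8, or 54.1% ± 8.54 of the top summit (SD, n = 3). Toward CG42807, 2.11 kb downstream of its nearest start site, the summit at 13570430 was ranked 12, 14 and 13. It had 26.5% ± 1.38 of the top signal (SD, n = 3), with 2003, 2105 and 2449 in replicates 1, 2 and 3. Its share of the top signal had the smallest SD among the summits ranked 2, 5 and 13.

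Between these stood weaker summits whose ranks differed between replicates. The summit at 13565966 was ranked 20, 35 and 15 in replicates 1, 2 and 3, with 19.0% ± 4.24 of the top signal (SD, n = 3). At 13564105 the ranks were 30, 216 and 35, with 15.7%, 6.61% and 16.2% of the top signal. Replicate 2 was the low sample at both, as it was at the second strongest summit. Farther right, 13568682 was ranked 382, 574 and 444, at 4.84% ± 0.494 of the top signal (SD, n = 3), and 13569540 was ranked 2205, 6426 and 3289. On the left, the summits matched to 13563254 were ranked 1010, 4329 and 290. The SD of these ranks was above the mean (1880 ± 2150, SD, n = 3). The matched summits lay at 13563403, 13563307 and 13563403 in replicates 1, 2 and 3. In replicates 1 and 3 they were nearer to 13563453, a summit of the pooled list ranked 6454 and not in the optimal set. Whether all 3 mark the same site was not tested, and the SD depends on this matching.

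A pair of weak summits on the CG13334 side was not found in all replicates. The summit at 13561775, ranked 1817 in the optimal set, had a summit within 150 bp in replicate 2 (rank 2801) and replicate 3 (rank 790) and none in replicate 1. Its neighbour at 13562072, ranked 3538, was matched in replicate 1 (rank 1127) and replicate 2 (rank 1737) and not in replicate 3.

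At 2 summits of the optimal set the pooled rank was far from the ranks of the replicate summits matched to them. The summit at 13564618, 210 bp from the second strongest, was ranked 27 in the optimal set with 15.8% of the top signal. It was ranked 220 in replicate 1 and 191 in replicate 3, with 6.6% and 7.66% of the top signal, and replicate 2 had no summit within 150 bp of it. The summit at 13570697, in the 3′ UTR of CG42807, went the other way. In the optimal set it was ranked 5224, with 1.16% of the top signal. The summits matched to it were ranked 46, 33 and 42 in replicates 1, 2 and 3, with 14.2% ± 0.996 (SD, n = 3). They lay at 13570616, 13570603 and 13570604, within 13 bp of each other and all to its left. They were 200, 199 and 199 bp right of the replicate summits ranked 12, 14 and 13, the smallest gap of the interval in each list. Whether they mark the same site as 13570697 was not tested. Of the optimal set, 5868 summits had a match in all 3 replicate lists. Only at 13570697 was the pooled rank at least 10 times the weakest matched rank. That rule was set after this summit had been seen.

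**Figure D4:**
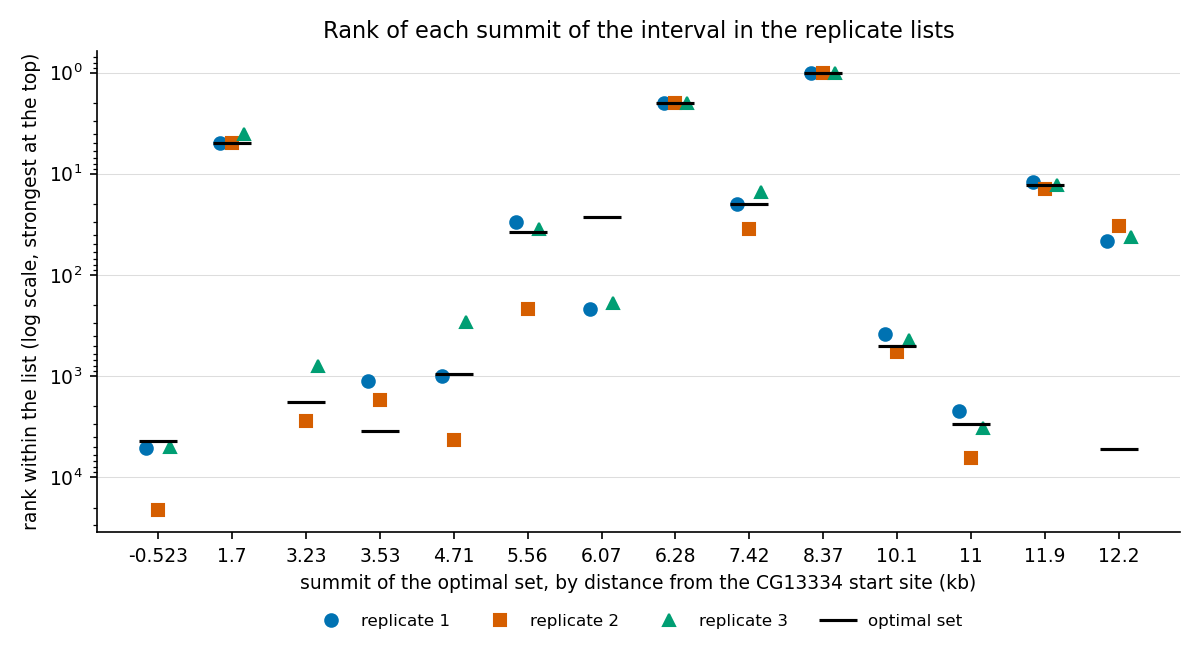
Rank within the list (log scale, strongest at the top) of the 14 summits of the optimal set, by distance from the CG13334 start site in kb, in replicates 1, 2 and 3 (symbols) and in the optimal set (black bar). Ranks of the summits at 1.7, 6.28, 8.37 and 11.9 kb nearly coincide. At 12.2 kb the matched replicate summits are at 46, 33 and 42 and the optimal set is at 5224.

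The leftmost summit, at 13558022, stood apart from the joined region. It lies in a snoRNA gene (FBgn0263459, 13557905 to 13558055, minus strand), at -0.523 kb from the CG13334 start site. SnoRNAs guide the chemical modification of ribosomal and other RNAs, and 3 of their genes lie at this end of the interval. It was ranked 4394 in the optimal set and 5179 and 5000 in replicates 1 and 3. In replicate 2 the nearest summit was ranked 21188, although another, 123 bp to the left of 13558022, was ranked 3699.

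How often the summits recurred between replicates depended on the peaks counted. Counting only the 6215 strongest peaks of each replicate list, 10 of 14 summits (71.4%) had a summit within 150 bp in all 3 replicates, against 63.5% of the optimal set. The other 93 summits among the 100 strongest were matched in 98.9%, but the 14 include weak ones. With all 30000 peaks of each list, 11 of 14 (78.6%) were matched in all 3, against 94.4% of the optimal set. Both counts of the interval include 13563254, whose matches in replicates 1 and 3 were nearer to another summit of the pooled list. They also include 13570697, whose matched summits had ranks far from its pooled rank. Among the 6215 strongest peaks of replicate 2, 13558022 was matched only by a summit at 13557899 (rank 3699), which was not its nearest in the full list. Where all 3 replicates had a match, the positions spanned a median of 26 bp in the interval (11 summits), against 57 bp over the optimal set and 27 bp over the other summits among the 100 strongest. The median of the interval was close to that of other strong summits.

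Prospero binds DNA through its homeodomain, and the core AAGACG (or CGTCTT on the other strand), the core of the motif known for it, was searched on both strands. Within 100 bp of the summit it was present at 1 of the 14 summits (7.14%, exact Clopper-Pearson 95% interval 0.181% to 33.9%, counting error only), against 11.3% of the optimal set and 26.9% of the other summits among the 100 strongest. The 14 are neighbours, 13 of them in 1 joined region, so they are not independent, which this 95% interval leaves out. The 1 summit with the core was the strongest of all. There the core began 32 bp and 75 bp to the right of the summit and again at 155 bp. At least 2 cores within 100 bp to either side occurred at 80 summits of the optimal set (1.29%), and at least 3 within 200 bp to either side occurred at 28 (0.451%). The whole interval held 5 cores, or 0.308 per kb, the same density as on the 6 chromosome arms together. The other 2 began 247 and 392 bp from the weak summit at 13568682, the nearest of the optimal set. The first of these, at 13568929, lay closer to weak summits outside the optimal set. They were at 13568954 in the pooled list (rank 7178), 13568908 in replicate 2 (rank 5493) and 13568979 in replicate 3 (rank 5141). In replicate 1 the nearest summit was at 13568809 (rank 19311). Within 200 bp to either side, still only 1 of the 14 summits, the strongest, had a core, against 17.2% of the optimal set. The summits of the optimal set at 13564828 (the second strongest), 13560249 (CG13334 3′ UTR) and 13570430 (toward CG42807) thus had none. This core is not the only sequence that Prospero may bind, and its absence from a window says nothing on binding there.

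The sequence of the interval occurs once in the genome. All 16166 words of 50 bases in it were unique among the assembled sequences, also counting the other strand, and no other place aligned to it at an E value of 1e-10. Within the interval, at an E value of 0.001, 13557704 to 13557848 aligned to 13557911 to 13558054 with 79.7% identity. The latter stretch holds the summit at 13558022. Shorter internal alignments, of 64 and 53 bp, had 85.9% and 84.9% identity. Soft-masked repeats covered 11.8% of it, against 20.1% of the 6 arms, and its GC content was 40.6%, against 42.2%. Within 100 bp to either side of the summits the median GC content was 43.0%, against 46.8% over the optimal set.

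The interval was not the fullest window of its length. The 14 of the interval stood against a mean of 0.75 summits of the optimal set over 8252 windows of the same length that tile the arms, of which 68.1% had none. A single window held more, with 15 (2R, 10539751 to 10555965). In the pooled list, where weaker peaks count too, the 19 summits of the interval took place 22, and the fullest window had 23. No window in either list held a stronger summit, which was fixed beforehand, since the interval was selected for its peaks and holds rank 1 of both lists.

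Of the other joined regions of the optimal set, 2 had 7 summits and 11 had 6, and these 2 and the 3 of the 11 with the strongest summits were set beside the interval. Of those with 7 summits, one was at Polr1D and brat (2L), where brat encodes a repressor of translation that is passed to the neuroblast daughter together with Prospero. The other lay at -1.67 kb from the start site of Imp (X), which encodes an RNA-binding protein of early neuroblasts. The 3 chosen among those with 6 summits were at pros (3R), at kis (2L), a chromatin remodeller, and at Trl (3L), the GAGA factor. The region of the interval had 1.07 summits per kb, and these had 1.01 to 1.5. The strongest summit was ranked 1 in the interval, against 93, 330, 6, 11 and 21 at brat, Imp, pros, kis and Trl, of which the last 3 had been chosen by this rank. In the interval it lay 5.63 kb from the nearest start site, against -1.67 kb at Imp and 2.09 kb, in an intron, at Trl, and at brat, pros and kis it was in a promoter, within 500 bp of a start site.

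In the 50 kb to either side there were fewer summits per kb, and the strongest was weaker than in the interval. The optimal set had 0.863 summits per kb in the interval, against 2 summits in the 50 kb to the left (0.04 per kb), of which the strongest was ranked 4051. The top summit of the interval exceeded the strongest summit there 63.6, 96.3 and 67.1 times in replicates 1, 2 and 3. In the 50 kb to the right there were 15 summits (0.3 per kb), and the top summit exceeded the strongest there 10.5, 9.62 and 8.84 times. At the left border the first summit inside, at 13558022, was ranked 4394 and the first outside, at 13555757, was ranked 4051. On the right the last inside was ranked 5224, and the first outside, at 13576331, was ranked 360. In the optimal set the signal thus did not drop at either border itself.

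**Figure D5:**
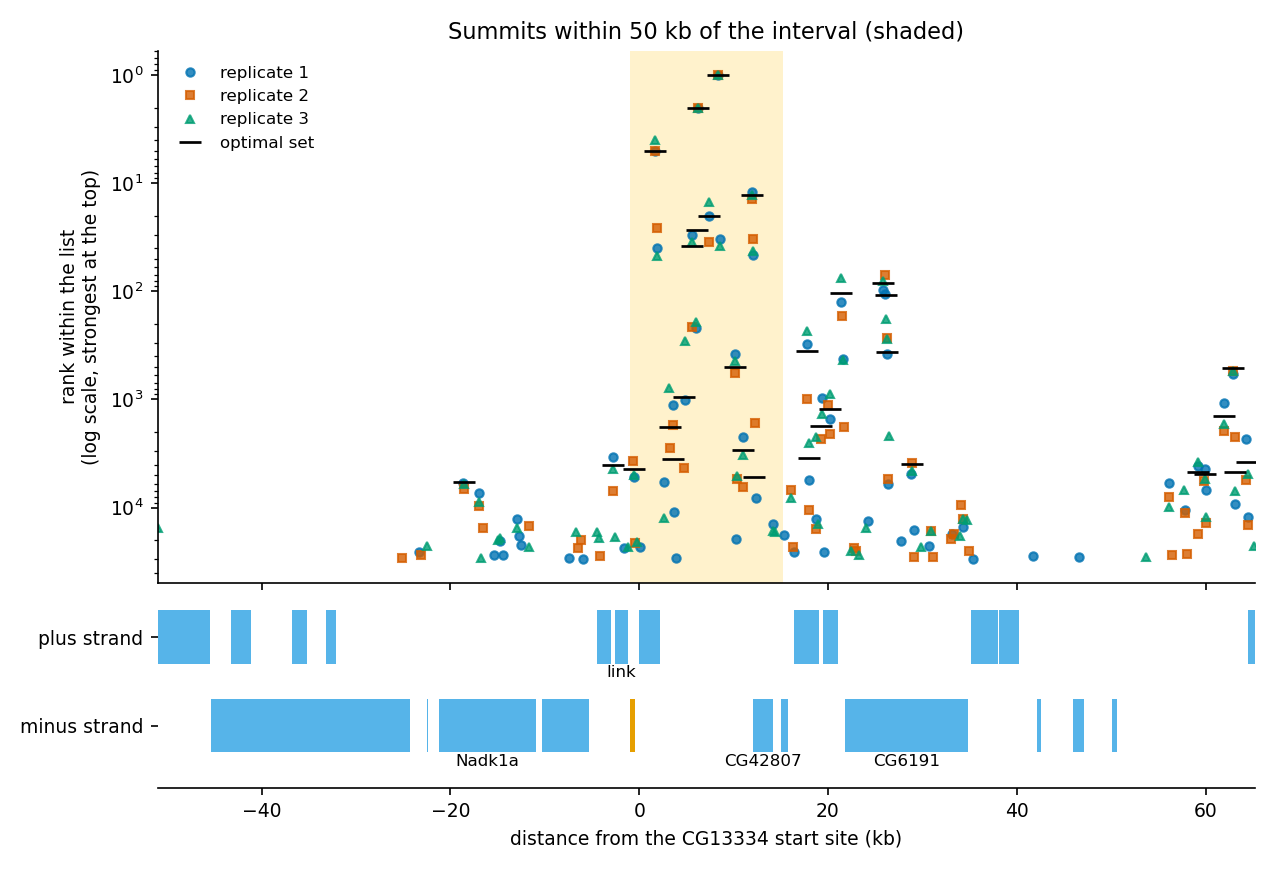
Rank within the list (log scale, strongest at the top) of all summits within 50 kb of the interval (shaded), by distance from the CG13334 start site in kb, for replicates 1, 2 and 3 and the optimal set, with genes of the plus and minus strand below and snoRNA genes in orange. Ranks 1, 2 and 5 of the optimal set are inside the shading, the strongest summit to the right is ranked 83, and the strongest to the left is ranked 4051.

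Of the 19 protein-coding genes that neighbour the interval within 50 kb, 5 had a summit of the optimal set within the gene or the 1 kb before it (26.3%), against 17.9% of all protein-coding genes. On the left these were link, whose promoter summit was ranked 3370, 7024 and 4378 in replicates 1, 2 and 3, and Nadk1a, which encodes an NAD kinase, whose promoter summit was ranked 5867, 6738 and 6061. On the right CG6191 and CG45088 overlap and share 4 summits. The strongest of these, in an intron at 13584387, was ranked 97 in replicate 1 and 81 in replicate 3, and replicate 2 had no summit within 150 bp of it, its nearest strong one being at 13584579 (rank 70). The last was tei, which starts at the outer limit and had 7 summits over the whole gene. The strongest, at 13724417, lay outside the 50 kb and was ranked 1609, 1995 and 1662. The summit of tei within 50 kb, in its promoter at 13622933, was ranked 3761 in the optimal set. A pair of long non-coding RNA genes right of the interval, CR44365 and CR44366, had 2 summits each, the strongest at ranks 309, 991 and 234 and at ranks 1527, 2086 and 898. The nearest coding gene on the right, CG42808, which overlaps the border, had none in the optimal set.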

How the data were processed

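The authors deposited narrowPeak lists on dm6. Per the deposited file descriptions, each replicate list came from the alignments of that replicate and a control, the pooled list from all 3, and the optimal set from these lists by a threshold on the irreproducible discovery rate. Which aligner, caller and threshold they used is not given in the sources used here. The deposited signal value (column 7) ranked peaks within a list. The deposited −log10 q-value entered no comparison. The summit (column 2 plus column 10) is given 1-based.

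Summits within 150 bp were matched, the nearest being taken. Overlapping peaks were joined into regions. Genes came from Ensembl release 115, sequence from the RefSeq copy of the assembly. A promoter reached 500 bp to either side of a start site. BLAST+ 2.17.0 compared sequences (E value limits of 1e-10 for the genome, 0.001 within the interval and 1e-05 for proteins). Python 3.11.15 with pandas 2.3.3 and NumPy 2.4.6 did the rest. The counting steps were tested on simulated data. The named genes are those in the interval, the nearest coding gene on either side, those within 50 kb with a summit, those at the 5 other regions with the most summits (ties by the strongest summit), and pros, with Ldh and Mdh2 added for their similarity to CG13334. Members, lists and rules were chosen with earlier results of these data known. Alternatives changed the borders, the matching distance, the list, the windows and the replicates used.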

Additional observations from a re-analysis of the deposited data

How the results depend on the processing

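Of 51 alternative values for 14 results, 40 stayed within the limit set (up to 1.5 times for counts and places, the SD between replicates for mean ranks, the exact 95% interval for shares) and 11 did not. The exact intervals take the members counted as independent, which neighbouring summits and genes are not. The share of neighbouring genes with a summit was 40.0% within 25 kb, against 26.3%, inside its interval. Counting summits up to 500 bp apart once, an alternative chosen after seeing the data, gave 13, 11 and 12 summits in replicates 1, 2 and 3 and 12 in the pooled list, from 22, 17, 20 and 19. With matches within 50 bp, 5 of the 14 summits were found in all 3 replicates, not 10. Over the whole optimal set the share found was 37.5%, not 63.5%. Matching by the strongest overlapping peak gave a mean rank of 1 to the summits at 13564828, 13560249 and 13570430, since the top summit shares their peak borders. Among windows of its length the interval took place 1, not 2, by its strongest summit, which was fixed because it holds rank 1. By count it took place 1 in a tie with 2 windows when the windows were set off against the first tiling. In the pooled list it took place 22 by count. Without replicates 1, 2 and 3 in turn, 11, 12 and 11 of the 14 summits were found in the remaining replicates. Over the whole optimal set the shares found were 71.1%, 73.4% and 71.6%. The mean ranks of the 4 strongest stayed at 1, 2, 4.5 to 5 and 12.5 to 13.5. No paired analysis was possible because there is a single group. A list of glycolysis and lactate genes was not run, since RefSeq gives CG13334 no such role. Depth is unknown, and each replicate list holds 30000 peaks, so a weak summit missing from a list is not shown to be absent from that replicate.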

Other observations

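Some strong summits of the replicate lists had no counterpart in the pooled list. To the right of the summit in the CG13334 3′ UTR, a further summit lay at 13560462, 13560468 and 13560464 in replicates 1, 2 and 3, ranked 40, 26 and 47. It was 213 to 219 bp from its neighbour and within 6 bp between replicates, but the pooled list had none there. To the right of the strongest summit, replicates 1 and 3 had one at 13567118 and 13567120, ranked 33 and 38, at a distance of 206 and 208 bp. Replicate 2 and the pooled list had none. In all, 8 of 22, 2 of 17 and 7 of 20 summits of the interval in replicates 1, 2 and 3 had no summit of the optimal set within 150 bp.

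Such close pairs were common among strong peaks of the replicate lists, and no list had 2 summits closer than 199 bp. The limit of 220 bp used here was chosen after seeing the data. Of the 100 strongest peaks, 6 of 9, 4 of 7 and 6 of 9 inside the interval had another summit of the same list within 220 bp in replicates 1, 2 and 3, against 60.4%, 79.6% and 58.2% outside it. In the pooled list they were fewer, 2 of 7 (28.6%) inside and 34.4% outside. A companion that was itself among the 100 strongest was found for 66.7%, 57.1% and 66.7% of these peaks inside the interval in replicates 1, 2 and 3, against 6.59%, 10.8% and 8.79% of those outside. The interval was chosen by these ranks, so this contrast is a description and was not tested. A pair with both members among the 100 strongest is counted at each member. Outside the interval the companion in these replicates lay to the right in 52 of 55, 69 of 74 and 49 of 53 cases. A match of summits at this spacing to separate sites was not tested.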
